A study of Danio rerio with 12 samples.

Results

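The untreated zebrafish of a lead (Pb) exposure study were compared at 120 hr postfertilization (hpf) and at 72 hpf. The arrays were chosen by their titles, which give the age and 0 ppb Pb, and they numbered 3 at 120 hpf and 3 at 72 hpf, 6 of the 12 arrays of the series. Both control groups were of the wild-type AB strain and were kept from about 1 hpf in water with 0 ppb lead acetate. Each array held Cy3-labeled material made from the total RNA of whole larvae, 50 to a pool, and each pool was 1 biological replicate. The other 6 arrays held larvae of the same ages and strain exposed to 100 ppb Pb, 3 at 120 hpf and 3 at 72 hpf. Because whole larvae were measured, a change in the number of cells of a type and a change in RNA per cell cannot be told apart.

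Between these ages the zebrafish larva uses up most of its yolk and starts to feed. The exocrine pancreas makes digestive enzymes, which act in the gut lumen together with peptidases of the intestinal brush border, while the liver and gut take on the handling of foreign compounds and bile acids. Kidney tubules, skin ionocytes, lens, retina and muscle continue to differentiate, and proliferation and axon outgrowth, which dominate the embryo, give way to growth of functioning organs.

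The array carries 385000 probes for 37157 targets, which are transcript sequences measured by several probes each. Values below are log2 intensities, averaged over the probes of a target after quantile normalization, and a difference of 1 on this scale is a doubling of signal. A gene name was known for 2663 targets (7.17%), which stand for 2650 genes. Across all targets the group means had a squared correlation of 0.928. The first principal component of the 6 control arrays held 55.4% of the variance and separated the ages, and the second, with 22.6%, set 120-hpf array 2 apart from the rest. That array correlated with its group at a mean r of 0.966, against 0.975 and 0.980 for the other 120-hpf arrays and 0.979 to 0.984 for the 72-hpf arrays. Only 7 of the tissue markers fixed for the check of the label had a named target. Of these, the muscle genes *acta1b* and *mylpfb*, the trypsin gene *prss59.1* and the globin gene *hbae3* were among the brightest 1% of targets, and the neuronal gene *syn2a*, the ionocyte gene *rhcga* and the macrophage gene *csf1ra* lay lower, at percentiles 92.6, 81.6 and 32.9. No fixed marker of liver, intestine, lens, photoreceptors, myelin or epidermis was named. The markers were matched as exact symbols, and some, such as *crygm* and *pde6*, are stems of family names. Named relatives such as *crygm2d4* and *anpepb.1* were therefore not counted in this check.

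The age comparison asked which genes differ between untreated larvae at 120 hpf and at 72 hpf. With limma at an adjusted p of 0.05 over all targets, 3542 of 37157 targets passed (9.53%), 2201 higher at 120 hpf (5.92%) and 1341 lower (3.61%). Among the 2650 named genes, 290 passed (10.9%), 194 higher (7.32%) and 96 lower (3.62%). Large differences were mostly rises, with 116 targets higher and 9 lower by at least 3 on the log2 scale. The count rested on few arrays. It was 1451 without 120-hpf array 3, 1631 without 72-hpf array 3, 1735 without 72-hpf array 2 and 2165 without 72-hpf array 1, but 6516 without 120-hpf array 2. In the 1341 targets called lower, 120-hpf array 2 was the highest of its group, and so nearest to the 72-hpf values, in 53.2%, and in the 2201 called higher it was the lowest of its group in 43.6%. A fit with array weights gave that array the lowest weight of the control arrays, 0.281. Its part in the results was not tested beyond that fit and leaving it out.

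**Figure D1:**
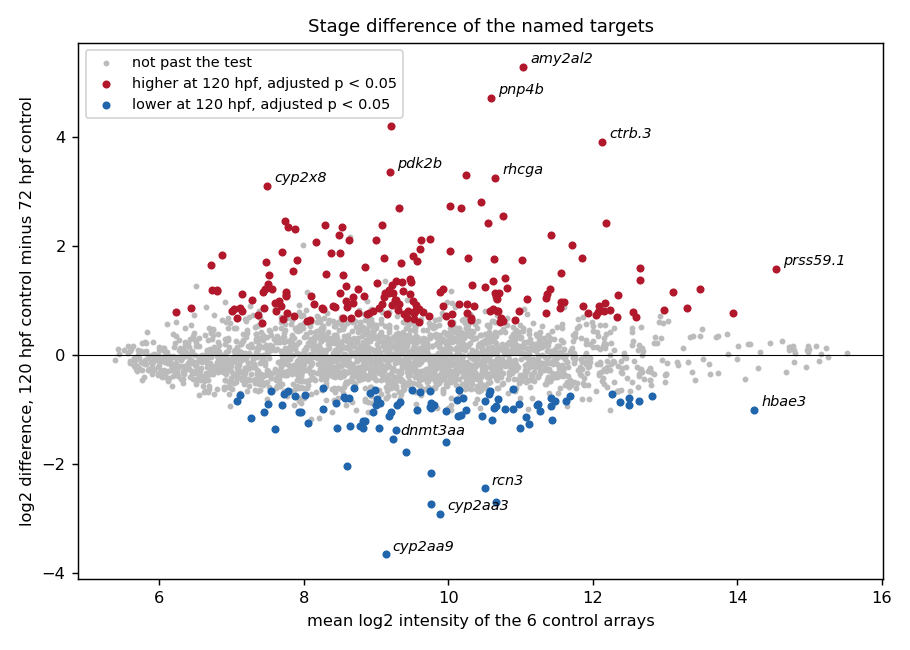
Log2 difference between 120-hpf and 72-hpf controls (vertical axis) against mean log2 intensity of the 6 control arrays (horizontal axis), 1 point per named target. Red points are higher and blue points lower at 120 hpf with an adjusted p under 0.05, and the rises reach 5.29 while the falls reach -3.66.

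The digestive enzymes of the exocrine pancreas gave the largest rise among named genes. *amy2al2*, an alpha-amylase that splits starch, stood at 13.76, 13.50 and 13.79 in the 120-hpf arrays, against 7.24, 9.95 and 7.99 in the 72-hpf arrays. The ages were far apart and the 72-hpf arrays spread much more than the 120-hpf arrays. The log2 difference was 5.29 (SE 0.55, limma adjusted p = 0.000669), a 39.1-fold higher signal. *ctrb.3*, a chymotrypsinogen, stood at 14.30, 13.99 and 13.98 at 120 hpf, against 9.22, 11.29 and 10.00 at 72 hpf, a difference of 3.92 (SE 0.43, adjusted p = 0.000845). *prss59.1*, a trypsin, was already bright at 72 hpf, with 15.28, 15.35 and 15.34 at 120 hpf, against 13.16, 14.26 and 13.79 at 72 hpf. Its difference was 1.58 (SE 0.26, adjusted p = 0.00617), at signals near the top of the scale. In all 3 genes, the 72-hpf array with the highest value was array 2 and the one with the lowest was array 1. The fourth measured member, *prss60.1*, lay at 6.61, 8.14 and 6.70 in 120-hpf larvae, against 5.83, 5.99 and 5.82 in 72-hpf larvae, and did not pass (adjusted p = 0.0581). Thus 3 of 4 members of the list were higher (75%, against 7.32% of named genes) and none was lower. The list median was 2.75, where all targets had a median of -0.04. The same count was 3 or 4 whichever array was left out.

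In the list of intestine and brush border genes, 4 of 6 measured members rose as well (66.7%, against 7.32% of named genes, median 1.60). *anpepb.1*, an aminopeptidase that frees amino acids from peptides at the gut surface, stood at 11.77, 12.01 and 11.94 in 120-hpf larvae, against 8.44, 8.97 and 8.39 in 72-hpf larvae. The groups were separated by far more than their spread, at a difference of 3.31 (SE 0.20, limma adjusted p = 4.95e-05). *ada*, adenosine deaminase, differed by 2.11 (adjusted p = 0.000162) and the water channel gene *aqp8a.2* by 1.10 (adjusted p = 0.04). The last call was kept in 10 of 19 alternative settings and lost without any array other than 120-hpf array 2, which left 3 members. *xpnpep2*, a further aminopeptidase, was higher by 2.11 (adjusted p = 0.00481) over all its probes, but its difference was -2.47 (adjusted p = 0.539) when only probes within 500 nt of the target's last probe were used. The intestinal transcription factor genes *cdx1a* and *cdx1b* made up the rest of the list and did not pass.

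Among the other large rises was that of *pnp4b*, a purine nucleoside phosphorylase. It stood at 12.95, 13.10 and 12.80 at 120 hpf, against 6.44, 8.77 and 9.47 at 72 hpf (difference 4.72, SE 0.62, limma adjusted p = 0.00221). Array 1 of 72 hpf lay below both of its fellows, and no 72-hpf value came near the 120-hpf values. The pigment cell list holds *pnp4b* by its symbol, and which cells express it was not tested. *pnp4b* was the only member of 12 in that list called higher, and *gart*, of purine synthesis, was the only one called lower (-1.13, limma adjusted p = 0.0153). Each was 8.33% of the list, against 7.32% of named genes higher and 3.62% lower, and 7 members lay above 0 and 5 below. *zgc:154142* rose by 4.20 (adjusted p = 6.19e-05). *pdk2b*, a kinase that restrains pyruvate dehydrogenase and so spares glucose, stood at 10.83, 10.64 and 11.17 in 120-hpf larvae and at 7.04, 7.69 and 7.81 in 72-hpf larvae. Its difference was 3.37 (SE 0.24, adjusted p = 8.63e-05), and the groups did not overlap. Further rises among the 15 largest were those of *cbx7a*, a Polycomb chromobox gene (2.73), *endou*, an endoribonuclease (2.70), *mmp30*, a matrix metallopeptidase (2.69), *pnpla3*, a lipid droplet lipase gene (2.55), and *folr*, a folate receptor (2.43), with adjusted p values of 0.000106 to 0.00252. In each of these 15 rises every 120-hpf array lay above every 72-hpf array, which the choice of genes required and which held for 19.6% of all named genes. Likewise in the 15 largest falls every 120-hpf array lay below every 72-hpf array, as in 16.8% of named genes.

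**Figure D2:**
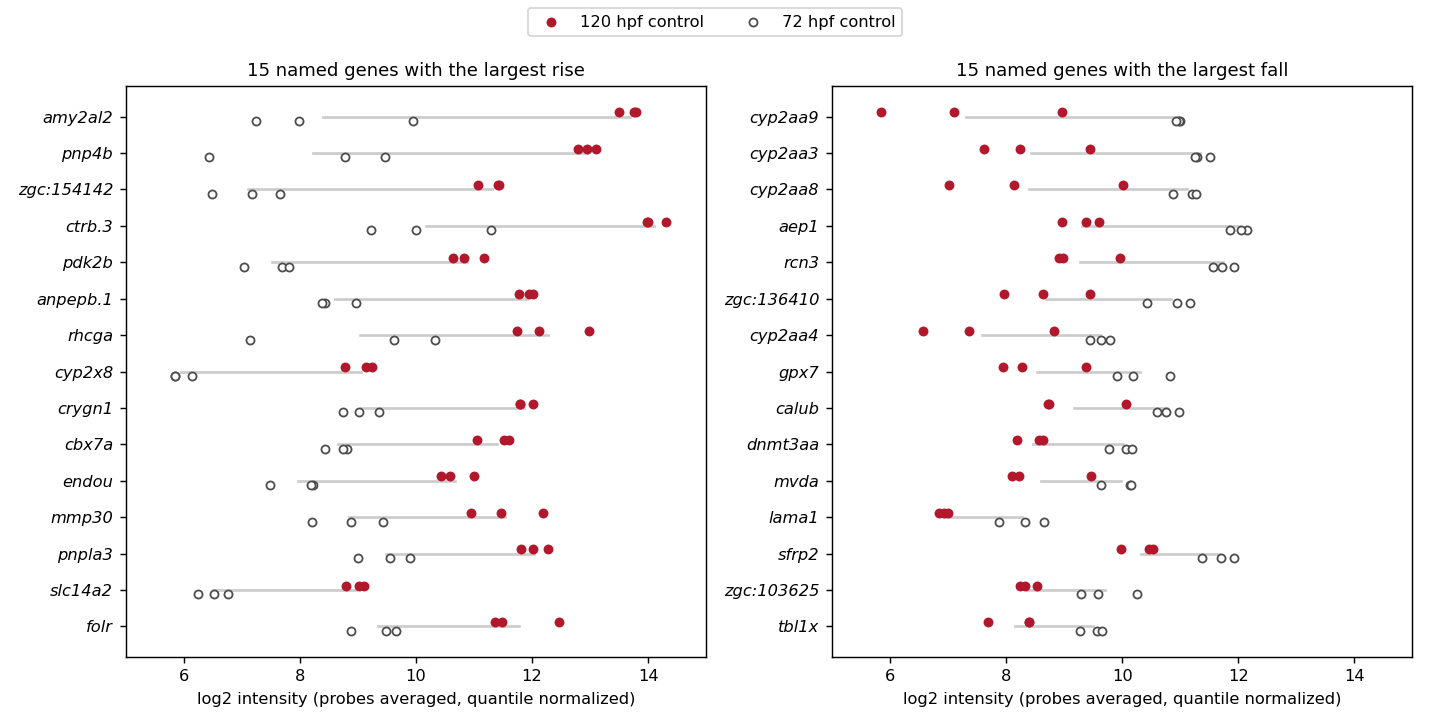
Log2 intensity (horizontal axis) of the 15 named genes that rose most (left) and the 15 that fell most (right) in each control array. Red points are the 3 arrays at 120 hpf, open points below them the 3 at 72 hpf, and gray lines join the group means. In *amy2al2* the 120-hpf arrays lie at 13.50 to 13.79, to the right of 72-hpf arrays at 7.24 to 9.95, and in *cyp2aa9* they lie at 5.84 to 8.96, to the left of 10.93 to 10.99.

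Genes of cytochrome P450 enzymes and of conjugation, which oxidize drugs, steroids and fatty acids and couple them to soluble groups, moved in both directions. Of 47 measured members, 15 were higher (31.9%, against 7.32% of named genes) and 4 were lower (8.51%, against 3.62%). The members called higher included the oxidizing enzymes *cyp2x8* (3.11), *cyp4v2a* (2.12), *cyp3c4* (1.87), *cyp2x9* (1.79) and *cyp2k19* (1.70), the glucuronosyltransferases *ugt5b4* (1.72), *ugt5a2* (0.87) and *ugt5b6* (0.84), the sulfotransferase *sult1st6* (1.33), the glutathione transferase *gstz1* (1.36), the aldo-keto reductase *akr1b1.1* (1.74), the epoxide hydrolase *ephx2* (1.11) and the efflux pump *abcg2a* (1.77), all with a limma adjusted p of 0.0492 or less. The call of *ugt5a2* was kept in 6 of 17 alternative settings. *gstz1* is counted again below with amino acid breakdown and *cyp4v2a* with fatty acid oxidation. A further 28 of the 47 members did not pass. *cyp7a1*, whose enzyme starts bile acid synthesis from cholesterol, was higher by 1.01 (SE 0.22, adjusted p = 0.0208). *cyp2x8* was near the dim end of the array at 72 hpf, with 8.78, 9.24 and 9.14 at 120 hpf, against 6.14, 5.85 and 5.84 at 72 hpf (adjusted p = 4.95e-05). Leaving out 1 array at a time gave 12 to 16 higher members and 2 to 5 lower ones, the lower count being 2 without 120-hpf array 3 or any 1 of the 72-hpf arrays.

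All 4 members called lower were genes of subfamily 2AA, and they were 4 of the 15 largest falls among named genes. *cyp2aa9* stood at 5.84, 8.96 and 7.11 in 120-hpf larvae, against 10.99, 10.98 and 10.93 in 72-hpf larvae. The 72-hpf arrays were nearly alike, while the 120-hpf arrays lay far from each other with array 2 the highest. The difference was -3.66 (SE 0.61, limma adjusted p = 0.00701), a 12.7-fold lower signal. *cyp2aa3* stood at 7.61, 9.44 and 8.24 at 120 hpf, against 11.29, 11.25 and 11.51 at 72 hpf (-2.92, adjusted p = 0.00221). *cyp2aa8*, at 7.01, 10.02 and 8.14 in 120-hpf larvae and 10.88, 11.21 and 11.28 in 72-hpf larvae, had a difference of -2.73 (adjusted p = 0.0227). In *cyp2aa4* it was -2.05 (adjusted p = 0.0256). In all 4 genes 120-hpf array 2 was the highest of its group. Without any 1 of the 3 arrays of 72 hpf, or without 120-hpf array 3, *cyp2aa8* and *cyp2aa4* no longer passed, with adjusted p of up to 0.102 and 0.103.

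The subfamily did not move as one. *cyp2aa1* was higher, with 9.82, 9.72 and 9.79 at 120 hpf, against 8.69, 8.95 and 8.68 at 72 hpf, and these tight groups gave a difference of 1.01 (SE 0.16, limma adjusted p = 0.00579). *cyp2aa2* lay at 8.34, 7.97 and 8.26 in 120-hpf larvae and at 8.21, 8.32 and 8.24 in 72-hpf larvae, which overlap (difference -0.07, adjusted p = 0.836). In the RefSeq annotation of assembly GRCz12tu the 10 *cyp2aa* genes lie on 1 chromosome, and the 6 measured ones follow each other in the order *cyp2aa4*, *cyp2aa8*, *cyp2aa9*, *cyp2aa1*, *cyp2aa2*, *cyp2aa3*. The genes called lower thus lie on both sides of the member called higher. These paralogs are alike in sequence, and whether a probe also binds RNA of a neighboring gene was not tested.

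**Figure D3:**
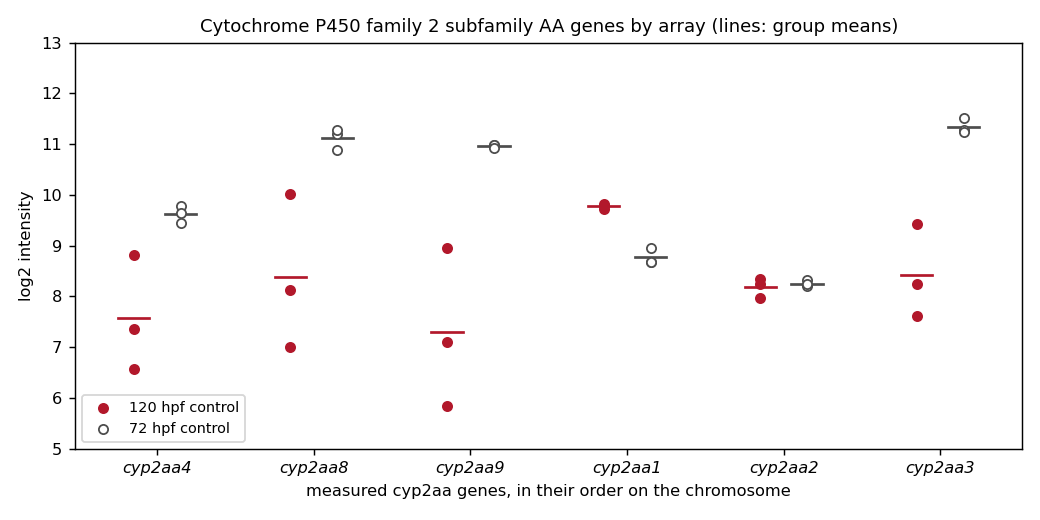
Log2 intensity (vertical axis) of the 6 measured *cyp2aa* genes, in their chromosomal order, in each control array. Filled points to the left are the 3 arrays at 120 hpf, open points to the right the 3 at 72 hpf, and lines are group means. *cyp2aa1* is higher at 120 hpf by 1.01, *cyp2aa2* overlaps, and the other 4 are lower, at -2.05 to -3.66.

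Genes of nutrient breakdown rose in part. Of 14 genes of amino acid and one-carbon catabolism, 4 were higher (28.6%, against 7.32% of named genes) and none lower (median 0.55). *hpdb*, the dioxygenase of tyrosine breakdown, stood at 12.87, 12.04 and 12.67 in 120-hpf larvae, against 10.48, 10.23 and 10.27 in 72-hpf larvae, a difference of 2.199 (SE 0.23, limma adjusted p = 0.000639). The lowest 120-hpf value, of array 2, was still above every 72-hpf value. *gstz1*, which acts further down the same route, *hal*, of histidine breakdown, and *agxt2* were higher by 1.36, 1.08 and 0.68. Of 13 genes of gluconeogenesis and fatty acid oxidation, 3 were higher (23.1%, against 7.32% of named genes) and none lower (median 0.41). They were *pdk2b*, *cyp4v2a*, also counted with the cytochrome P450 genes, and *mlycd*, malonyl-CoA decarboxylase (0.72, adjusted p = 0.0209). In the list of secreted liver proteins, with 7 measured members, only the complement gene *c3a.2* passed (1.06, adjusted p = 0.0242). That is 14.3% of the list, against 7.32% of named genes, and *c3a.2* did not pass in every fit with 1 array left out. The list does not hold *gc*, a liver gene that was higher and is described among the other observations. The amino acid count was 5 without 120-hpf array 2 and 2 without 120-hpf array 3, 72-hpf array 1 or 72-hpf array 3, and the count of 3 for gluconeogenesis and fatty acid oxidation was 2 without any array other than 120-hpf array 2.

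The list of ionocyte, kidney tubule and acid-base genes had 7 higher members of 29 (24.1%, against 7.32% of named genes) and none lower (median 0.43). *rhcga*, a channel through which fish excrete ammonia, stood at 11.74, 12.99 and 12.11 in 120-hpf larvae, against 7.14, 10.32 and 9.62 in 72-hpf larvae. The groups did not overlap, and 72-hpf array 1 lay far below the other arrays of its age (difference 3.25, SE 0.70, limma adjusted p = 0.0202). Its call was lost without 72-hpf array 3 or without 120-hpf array 3 (adjusted p of up to 0.0628). *slc22a4*, an organic cation transporter, was higher by 1.90 (adjusted p = 0.00233) and *ca15c*, a carbonic anhydrase, by 1.31 (adjusted p = 0.0101). The others were *aqp8a.2*, also counted with the intestine, *stc1l*, a hormone gene and not a transporter, *slco2a1* and *slco2b1*, at 0.74 to 1.10. The count was 9 without 120-hpf array 2, and 2 or 3 without any 1 of the other 5 control arrays. Among 64 solute carriers, 8 were higher (12.5%, against 7.32% of named genes) and none lower. Without 120-hpf array 2 there were 11 higher and 7 lower carriers, and without 120-hpf array 3 there were 6 and 0. The largest rise was that of *slc14a2*, a urea transporter, with 8.79, 9.10 and 9.03 at 120 hpf, against 6.25, 6.52 and 6.76 at 72 hpf (2.46, adjusted p = 0.000117). *slc25a43*, a mitochondrial carrier, and *slc47a2.1*, which exports organic cations, rose by 1.92 and 1.75, and 33 of the 64 members had a difference above 0.

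In the eye, 3 of 16 photoreceptor genes were higher (18.8%, against 7.32% of named genes) and none lower (median 0.49). They were *rdh8b*, a retinol dehydrogenase of the visual cycle (1.15, limma adjusted p = 0.00539), *rom1b*, a structural protein of outer segment discs (1.02, adjusted p = 0.0063), and the arrestin gene *sagb* (0.78, adjusted p = 0.0148). Among 25 lens genes 4 were higher (16.0%) and none lower. *crygn1*, a gamma-N crystallin, stood at 11.79, 11.79 and 12.02 in 120-hpf larvae, against 9.03, 8.74 and 9.37 in 72-hpf larvae, a difference of 2.82 (SE 0.20, adjusted p = 8.01e-05). The other 3 differed by far less: *crygm2d4* by 0.83, *crybgx* by 0.77 and the membrane protein gene *lim2.5* by 0.64. The lens list had 22 of 25 members above 0, at a median of 0.21. The count of 4 was 1 without 120-hpf array 3, 72-hpf array 2 or 72-hpf array 3, and 2 without 120-hpf array 1 or 72-hpf array 1. On the deposited values without further normalization, 0 photoreceptor and 1 lens gene passed.

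The skeletal muscle list held selected rises around a median near 0. Calls among genes of synaptic transmission were no more frequent than among all named genes. Of 39 muscle genes 8 were higher (20.5%, against 7.32% of named genes) and 1 lower, with a median of 0.06. The 8 included *ampd1*, AMP deaminase of muscle (1.204, limma adjusted p = 0.00617), *acte1*, an actin (1.16, adjusted p = 0.00229), the fast troponin I genes *tnni2a.1* (0.90) and *tnni2b.2* (0.87), *myoz2a*, of the Z disc (0.98), and *pygma*, glycogen phosphorylase (0.69), and *pdlim3b* was lower (-0.82, adjusted p = 0.0439). *acte1* was measured evenly, with 13.65, 13.66 and 13.76 in 120-hpf larvae and 12.59, 12.45 and 12.55 in 72-hpf larvae. Of 67 genes of synaptic transmission, 4 were higher (5.97%, against 7.32% of named genes) and none lower (median -0.01). The largest of these differences was that of *camk2a*, a calcium-dependent kinase of synapses. It stood at 10.47 ± 0.04 in 120-hpf larvae and 9.32 ± 0.31 in 72-hpf larvae (SD, n = 3 each, difference 1.16, limma adjusted p = 0.0065). The others were *slc6a6b*, *chrna6* and *kcnip3a*, at 0.80 to 0.94. Without 120-hpf array 3 the counts of higher members were 4 for muscle and 1 for synapses, and on the deposited values without further normalization both were 0. Of 26 hormone and neuropeptide genes 2 were called higher (7.69%, near the 7.32% of named genes). They were *pth1b*, a parathyroid hormone (1.70, limma adjusted p = 0.0144), and *igfbp5a* (0.64), a call kept in 5 of 18 alternative settings. Of 54 immunity genes *c3a.2*, *nfkbie* (0.99) and *pglyrp2* (0.85) were called higher, a share of 5.56% against 7.32% of named genes. The immunity count was 7 without 120-hpf array 2 and 1 without 120-hpf array 3 or in the fit to all 12 arrays.

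All 10 measured genes of cell cycle and mitosis had a difference below 0 (median -0.63) and 3 of them passed, against 3.62% of named genes. *ube2c*, which marks mitotic cyclins for breakdown, stood at 9.89, 11.08 and 10.49 in 120-hpf larvae, against 11.45, 11.58 and 12.25 in 72-hpf larvae (difference -1.27, SE 0.32, limma adjusted p = 0.037). *ccna2*, a cyclin of S phase and mitosis, stood at 10.25, 11.41 and 10.62 at 120 hpf, against 11.71, 11.76 and 11.89 at 72 hpf (-1.03, SE 0.27, adjusted p = 0.0468). In both, array 2 was the highest of the 120-hpf arrays and came close to the lowest 72-hpf array without overlapping it. The third was *haus5*, of the mitotic spindle (-0.79, adjusted p = 0.0368). Without 120-hpf array 2 there were 7 members called lower, and without any 1 of the other 5 control arrays, or in the fit to all 12 arrays, there were 0. The transcription factor gene *foxm1*, which drives mitotic genes, was lower as well (-1.04, adjusted p = 0.0101), and of 6 replication genes *mcm10* passed (-1.06, adjusted p = 0.0228) and *mcm5* did not (-0.71, adjusted p = 0.137). The call of *mcm10* was lost without any array other than 120-hpf array 2, and without that array 3 replication genes passed.

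Of 16 chromatin genes, 2 were higher and 2 lower (12.5% each, against 7.32% and 3.62% of named genes). *dnmt3aa*, which sets new DNA methylation, stood at 8.57, 8.64 and 8.19 in 120-hpf larvae, against 10.07, 9.78 and 10.18 in 72-hpf larvae. These groups were clearly apart (-1.54, SE 0.19, limma adjusted p = 0.00166). *chaf1a*, a subunit that loads histones on replicated DNA, was lower too (-0.95, adjusted p = 0.0428), a call kept in 8 of 19 alternative settings and lost without any array other than 120-hpf array 2. *cbx7a* and *arid6* were higher (2.73 and 1.07), and 1 of them passed without 120-hpf array 3, 72-hpf array 1 or 72-hpf array 3. *tbl1x*, of a corepressor complex, was also among the 15 largest falls (-1.34, adjusted p = 0.00778).

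Genes of axon guidance and cell adhesion lay mostly below 0, by small amounts. Of 68 measured members 65 had a difference below 0, at a median of -0.35, where 1437 of all 2650 named genes were below 0 at a median of -0.04. Only 6 passed, all lower (8.82%, against 3.62% of named genes). *lama1*, a laminin chain of embryonic basement membranes, stood at 6.92, 7.00 and 6.84 in 120-hpf larvae, against 7.88, 8.32 and 8.65 in 72-hpf larvae (-1.36, SE 0.21, limma adjusted p = 0.00505). *dcc*, the netrin receptor of growing axons, stood at 8.94, 8.41 and 8.51 at 120 hpf, against 9.38, 9.97 and 9.85 at 72 hpf (-1.11, SE 0.22, adjusted p = 0.0141). Both were separated by age in every array. The integrin genes *itgb3b* and *itgb1b*, the laminin gene *lamb1a* and the guidance cue gene *slit1b* were lower too, with differences of -1.06, -0.90, -0.78 and -0.65. There were 7 called members without 120-hpf array 2, 4 without 120-hpf array 1 or 72-hpf array 1, 2 without any 1 of the other 3 arrays, and 1 in the fit to all 12 arrays.

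Among 44 genes of Wnt, Hedgehog, BMP and FGF signaling, which pattern the embryo, 31 were below 0 (median -0.31), 4 passed as lower (9.09%, against 3.62% of named genes) and 1, the activin antagonist *fstb*, as higher (0.75, limma adjusted p = 0.0449). The call of *fstb* was kept in 8 of 19 alternative settings. *sfrp2*, a secreted Wnt modulator, stood at 10.46, 9.98 and 10.53 in 120-hpf larvae, against 11.38, 11.70 and 11.93 in 72-hpf larvae (-1.35, SE 0.22, adjusted p = 0.00559). *vangl2*, of planar cell polarity, *bcl9*, a beta-catenin partner, and *fstl1b* had differences of -0.999, -0.89 and -0.85. The 4 calls became 6 without 120-hpf array 2, 2 without 72-hpf array 2 or 3, and 1 without 120-hpf array 3. Of 62 homeobox and other developmental factors, 3 were lower (4.84%, near the 3.62% of named genes), among them *foxm1* and *foxo1b* (-1.002). The 2 that were higher (3.23%, against 7.32% of named genes) were *foxk1* (0.84) and *hnf4b* (0.65), a hepatocyte nuclear factor. Their calls were kept in 11 and 8 of 19 alternative settings, and 0 were higher without 120-hpf array 3 or in the fit to all 12 arrays. The 3 lower calls became 7 without 120-hpf array 2, 1 without 72-hpf array 2 or 3, and 2 without any 1 of the other 3 arrays. Of 14 genes of neural progenitors, 12 were below 0 and only *fabp7a*, the fatty acid binding protein of radial glia, passed (-0.80, limma adjusted p = 0.0448). That is 7.14% of the list, against 3.62% of named genes, and the call was kept in 8 of 19 alternative settings. Among 6 genes of myelin and glia *fabp7a* was again the only one to pass, and *mag*, of myelin, had 0.57 (adjusted p = 0.095).

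The other named falls among the 15 largest included *mvda*, *rcn3*, *calub*, *gpx7* and *aep1*. *mvda*, which forms the isoprene unit of sterols, had a difference of -1.38 (limma adjusted p = 0.036). It stood at 8.09, 9.46 and 8.22 at 120 hpf, against 10.13, 9.63 and 10.15 at 72 hpf, with array 2 of 120 hpf close to array 2 of 72 hpf, and its call was lost without any array other than 120-hpf array 2 (adjusted p of up to 0.137). In the list of cholesterol and fatty acid synthesis and lipoproteins, which does not hold *mvda*, *hsd17b7* (-1.21) and *sc5d* (-0.60) were lower and the lipoprotein receptor gene *ldlra* was higher (1.13, adjusted p = 0.0205), of 17 measured (11.8% lower and 5.88% higher, against 3.62% and 7.32% of named genes). The lower count was 7 without 120-hpf array 2, 1 without 72-hpf array 1, and 0 without any 1 of the other 4 arrays or in the fit to all 12 arrays, and the call of *sc5d* was kept in 6 of 18 alternative settings. *rcn3*, a calcium-binding protein of the endoplasmic reticulum, stood at 8.90, 9.96 and 8.98 in 120-hpf larvae, against 11.71, 11.56 and 11.92 in 72-hpf larvae (-2.45, SE 0.28, adjusted p = 0.001). *calub*, of the same protein family, and *gpx7*, a peroxidase of that compartment, had -1.60 and -1.78 (adjusted p = 0.0188 and 0.0173), again with 120-hpf array 2 the highest of its group. Both lost their call without 72-hpf array 1 or 3 and without 120-hpf array 3, and *calub* also without 72-hpf array 2 (adjusted p of up to 0.0852 in *gpx7* and 0.0922 in *calub*). *aep1*, an aerolysin-like gene, was lower (-2.71, SE 0.20, adjusted p = 0.000109), with 9.37, 9.60 and 8.96 in 120-hpf larvae, against 12.15, 11.86 and 12.05 in 72-hpf larvae. *zgc:136410* (-2.16) and *zgc:103625* (-1.35), named only by clone, complete the 15 largest falls.

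Matrix, blood and stress genes were mixed. Of 19 genes of cartilage, bone and collagen matrix, *mmp30*, *spp1* and *hapln2* (0.87) were higher. *spp1*, an osteopontin of mineralizing bone, differed by 2.11 (limma adjusted p = 0.00146). The genes *plod2*, *emilin1b* and *has2* were lower (-0.86, -0.85 and -0.85). Each direction held 15.8% of the list, against 7.32% higher and 3.62% lower among named genes. The lower count was 4 without 120-hpf array 2 and 0 without 120-hpf array 3. For *plod2*, a second, dimmer target had 0.16 (adjusted p = 0.638). The embryonic globin gene *hbae3* stood at 13.46, 14.12 and 13.61 in 120-hpf larvae, against 14.85, 14.59 and 14.77 in 72-hpf larvae (-1.01, limma adjusted p = 0.0169). Its call was lost without 72-hpf array 1, 72-hpf array 3 or 120-hpf array 3. Of the other 13 red cell genes *hmox1b*, a heme oxygenase, and *slc25a38a*, a mitochondrial glycine carrier for heme synthesis, were higher (1.95 and 1.21). The red cell list thus had 14.3% of its members higher and 7.14% lower, against 7.32% and 3.62% of named genes. Without 120-hpf array 2 it had 3 higher and 3 lower members, and without 120-hpf array 3 it had 1 and 0. *hmox1b* varied widely among the 120-hpf arrays (11.47, 9.56 and 10.74, against 8.53, 8.69 and 8.71 at 72 hpf). Its call was lost without any 1 of the 72-hpf arrays or without 120-hpf array 3. Of 21 genes of oxidative stress and metal binding, *hmox1b* and *prdx6* (0.73) were higher, and *gpx7*, *selenon* (-1.31) and *nfe2l3* (-1.30) were lower (9.52% higher and 14.3% lower, against 7.32% and 3.62% of named genes). Without 120-hpf array 2 there were 2 higher and 5 lower members and without 120-hpf array 3 there were 0 and 1, and the call of *prdx6* was kept in 8 of 19 alternative settings. Of 25 heat shock and unfolded protein genes, *hspb9l* (1.41) and *hspb15* (1.15) were higher and the chaperone gene *calr* was lower (-0.87). These shares, 8% and 4%, were near the 7.32% and 3.62% of named genes. The keratin gene *krt97* was the only one of 17 epidermal genes to pass (1.37, limma adjusted p = 0.00341), 5.88% against 7.32% of named genes. Of 7 heart genes only the connexin gene *gja5a* passed (-0.91, limma adjusted p = 0.034), 14.3% against 3.62% of named genes. Its call was kept in 10 of 18 alternative settings. It was lost without any array other than 120-hpf array 2 and in the fit to all 12 arrays.

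Apart from the list of translation factors and tRNA synthetases, few genes of general cell functions passed. Of 17 translation factors and tRNA synthetases, the elongation factor genes *eef1a1l2* (1.59, limma adjusted p = 0.00163) and *eef1a1b* (1.24, adjusted p = 0.00354) and *aimp1b* (0.89) were higher, and *eif4g1a* was lower (-0.92). These were 17.6% and 5.88% of the list, against 7.32% and 3.62% of named genes. With probes within 500 nt of the last one, *eef1a1b* had -0.52 (adjusted p = 0.437). Of 58 proteasome and ubiquitin genes, *fbxo7* (0.67) was higher and *ube2c*, *psmd2* (-0.75) and *ubap2a* (-0.71) were lower (1.72% and 5.17%, against 7.32% and 3.62% of named genes). These counts were 6 and 4 without 120-hpf array 2 and 0 without any 1 of the other 5 arrays, and the call of *fbxo7* was kept in 4 of 18 alternative settings. Of 57 genes of vesicle and endosome trafficking, *rab40b* (1.18) was higher and *arf4a* (-0.88) and *rab8a* (-0.71) were lower (1.75% and 3.51%), with 5 lower members without 120-hpf array 2 and 0 without 120-hpf array 3. Of 9 genes of oxidative phosphorylation only *cox5b2* passed (0.96, limma adjusted p = 0.0214), 11.1% of the list. No member passed among 17 splicing and RNA binding genes, although 16 of them were below 0 (median -0.33), nor among 5 ribosomal proteins (0.12 to 0.26), 10 vascular genes, 4 clock genes or the yolk genes *vtg4* and *vtg5* (-0.05 and 0.13), which lay near the dim end of the array at both ages.

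**Figure D4:**
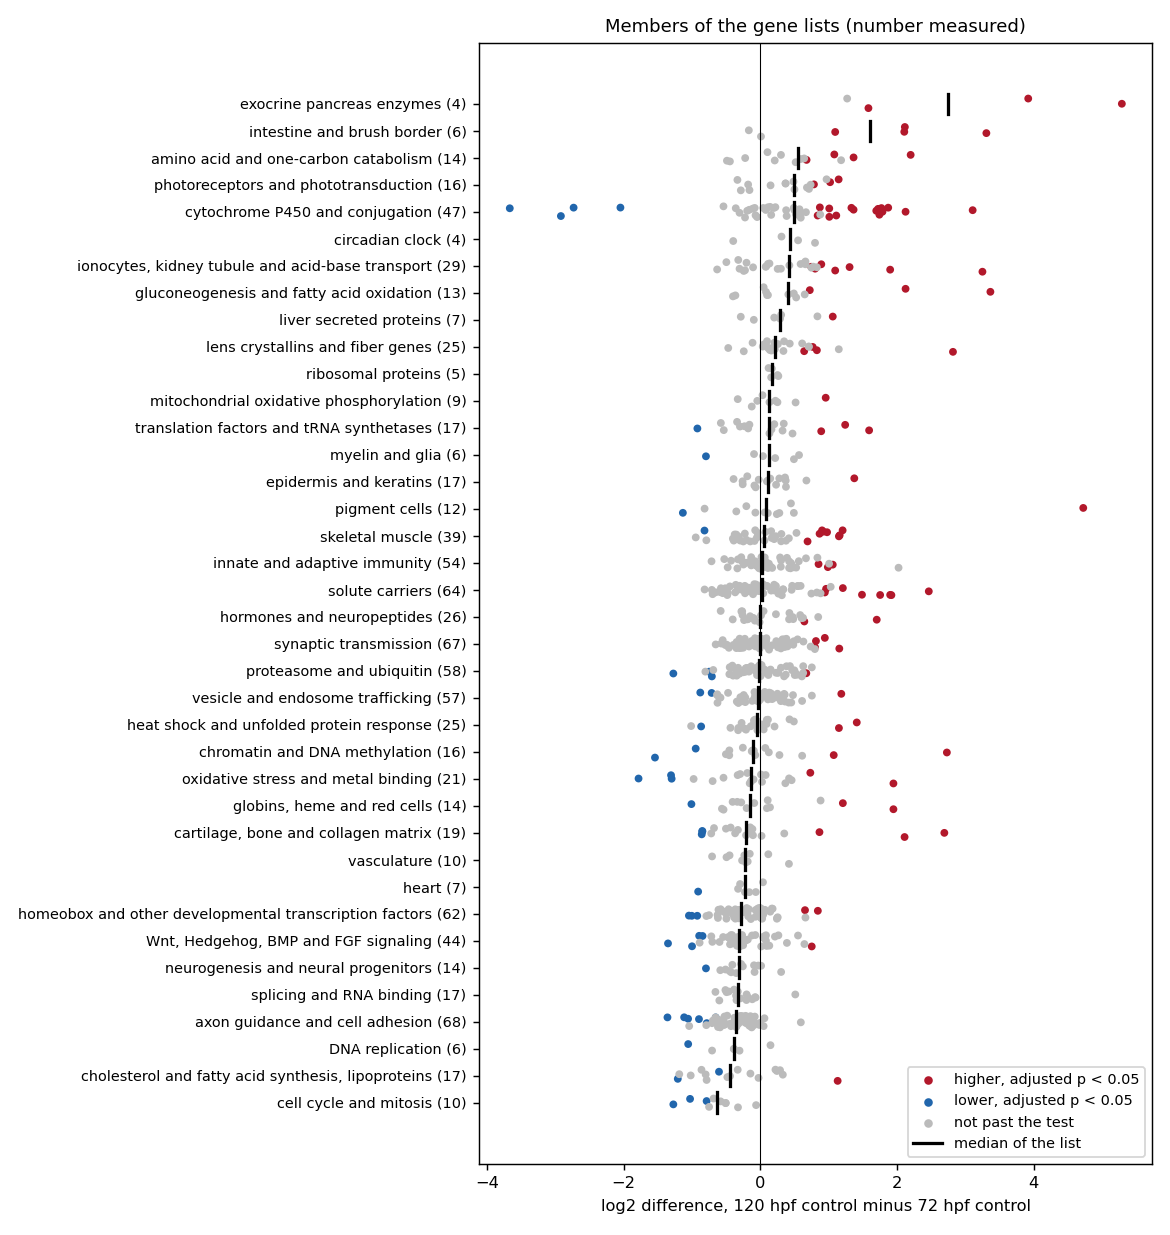
Log2 difference between 120-hpf and 72-hpf controls (horizontal axis) of each measured member of the gene lists with at least 4 members, ordered by their medians (black lines), with the number measured in parentheses. Red and blue points passed as higher and lower at 120 hpf with an adjusted p under 0.05. Pancreas (median 2.75) and intestine (1.60) stand at the top, and cell cycle (-0.63) at the bottom.

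Most of the largest differences were in targets with no gene name here, as were 34494 of all 37157 targets. The largest rise, in target ZV700S00005098, was 6.15 (SE 0.48, limma adjusted p = 0.000138), with 14.61, 14.34 and 14.40 at 120 hpf, against 7.01, 9.40 and 8.48 at 72 hpf. Its 72-hpf arrays kept the order seen in the pancreas genes, with array 2 the highest and array 1 the lowest. Target OTTDART00000008893 rose by 5.69 (SE 0.21, adjusted p = 1.24e-05), with 13.54, 13.23 and 13.06 at 120 hpf, against 7.27, 7.67 and 7.81 at 72 hpf, and no other target had a smaller p. Target ENSDART00000021648 was the largest fall (-4.55, SE 0.49, adjusted p = 0.000777), with 6.26, 8.46 and 6.71 at 120 hpf, against 11.68, 11.29 and 12.10 at 72 hpf, and target OTTDART00000020290 had -3.69 (adjusted p = 4.95e-05).

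The same age difference was then measured in larvae exposed to 100 ppb Pb, on arrays of other pools. All 30 genes of the largest rises and falls had the same sign in Pb-treated larvae, and 19 of them passed there, all 15 rises and 4 falls, where 1.32% of named genes passed as higher and 0.151% as lower. *amy2al2* differed by 4.37 in Pb-treated larvae and 5.29 in controls, *ctrb.3* by 3.38 and 3.92, *pdk2b* by 3.66 and 3.37, and *cyp2aa9* by -3.86 and -3.66. The spread was wider in Pb-treated larvae, with a median SE over targets of 0.30 against 0.20 in controls, and 364 targets passed there (0.98%), 329 higher (0.885%) and 35 lower (0.0942%). Of these, 361 had passed in controls with the same sign. That is 99.2% of the Pb calls and 10.2% of the control calls. Of the 3542 targets called in controls, 3495 (98.7%) had the same sign in Pb-treated larvae, as did 76.8% of all targets. The deposited values appeared to have been normalized within each pair of a Pb and a control array, so these values are not taken as fully separate.

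Some falls were small in Pb-treated larvae. *lama1* differed by -0.20 (SE 0.46) there and by -1.36 in controls, *dcc* by -0.21 and -1.11, and *bcl9* by -0.15 and -0.89, and the list of axon guidance and adhesion had a median of -0.07 in Pb-treated larvae and -0.35 in controls. The test of the difference between the age effects, in a limma fit to all 12 arrays, called 0 of 37157 targets, with 75 at an unadjusted p under 0.05 and a smallest adjusted p of 1, and no other tool was run for it. Those 75 are far below the share of 0.05 of targets that a test passes on average where nothing differs. That fit had no term for the pairs of a control and a Pb array, which appeared to have been normalized together, and a fit with such a term was not run. A difference in the age effect was therefore not detected by this test, which does not show that the effects were alike.

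**Figure D5:**
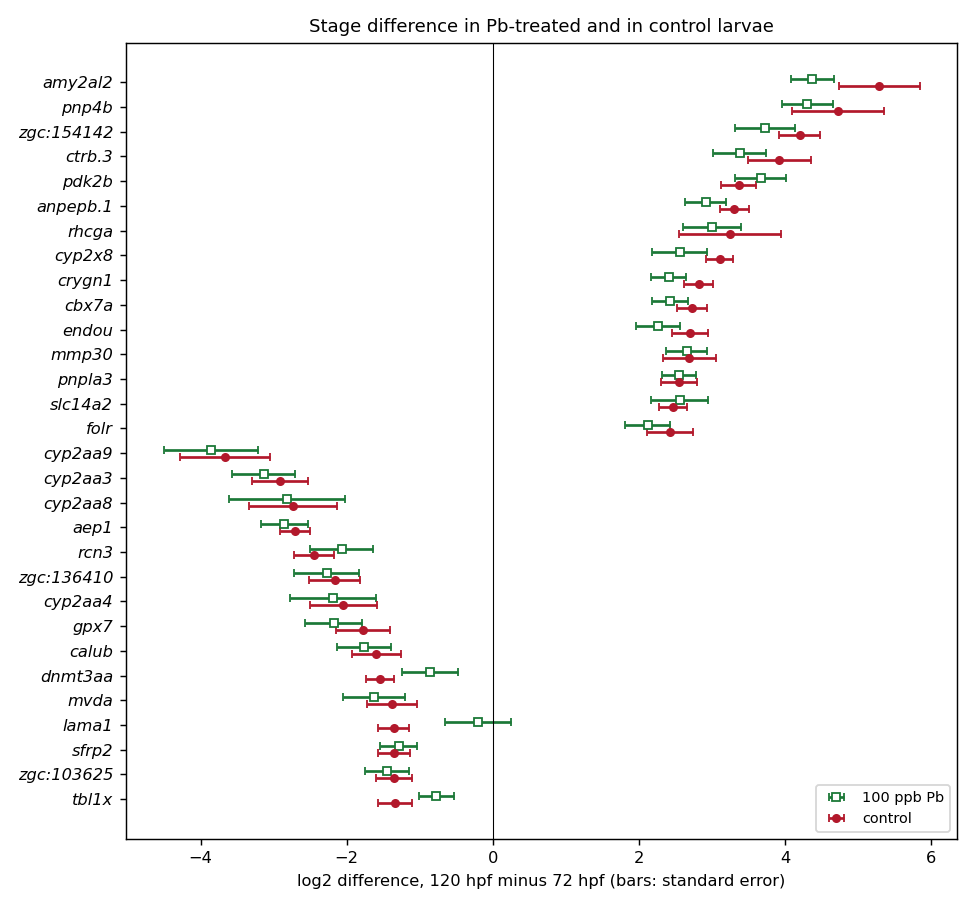
Log2 difference between 120 hpf and 72 hpf (horizontal axis, bars are standard errors) of the 30 named genes that rose or fell most in controls, 15 in each direction. Open squares are Pb-treated larvae and filled points are controls, n = 3 arrays per age and treatment. All 30 pairs lie on the same side of 0, and *lama1*, at -0.20 in Pb-treated larvae and -1.36 in controls, is among the widest apart.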

How the data were processed

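Gene expression was measured on 12 one-color arrays of zebrafish pools, of which the 6 control arrays are described here. The authors deposited linear intensity values, 1 per probe and array. The submitters' processing notes name RMA, with a version not given in the sources used here. The study's methods state quantile normalization. Medians of the deposited values were equal or close within each Pb and control pair of arrays, the widest gap being 426.8 against 424.5, and differed across pairs. The lowest and highest values were identical in both replicate 1 pairs, but not in every other pair. RefSeq's annotation of GRCz12tu was used for gene names and for the order of the *cyp2aa* genes, and no coordinate was used.

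Here the log2 of each deposited intensity was quantile normalized across all 12 arrays, and the mean over probes stands for a target. Dim targets were kept. The number of arrays limits the precision. limma 3.58.1 (lmFit and eBayes) in R 4.3.3 with the data.table package (version 1.17.8) was fitted to the 6 control arrays, and in the same way to the 6 Pb arrays, with Benjamini-Hochberg adjustment over all 37157 targets at 0.05. A fit to all 12 arrays gave the difference of the age effects. The script was tested on simulated data. Names came from the platform annotation (2626 targets) and from RefSeq accessions (37 targets), and a gene with several targets (13 genes) was given by its brightest one.

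The named genes are the 15 largest rises and 15 largest falls that passed with non-overlapping groups, and in each of 40 gene lists the members with the smallest p and those counted. Lists are symbol patterns, and 1 of them, of reference genes, had no named member. A gene can belong to more than 1 list, so the counts of different lists share some calls. The members and lists were chosen with earlier results of these data known. Alternatives covered the probe summary, normalization, background, dim targets, variance model, array weights, probe position, arrays left out, the replicate number and the methods' t-test.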

Additional observations from a re-analysis of the deposited data

How the results depend on the processing

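The count of 3542 targets called between 120 hpf and 72 hpf in controls stayed within 1.5 times under 10 of the settings that kept all 6 arrays and the limma test. It was 1765 in a fit to all 12 arrays and 1528 on the deposited values without further normalization. With array weights it was 13508, where 120-hpf array 3 had a weight of 8.75 and 120-hpf array 2 a weight of 0.281. Leaving out 1 array gave 1451 to 6516. The methods' t-test with its p and log2 ratio thresholds called 5811 (3195 higher and 2616 lower), and 596 after Benjamini-Hochberg adjustment. A log2 difference of at least 1 beside the limma call left 1874. The share of called targets that were higher was 62.1%, and became 63.9% with median polish, 76.0% with all 12 arrays, 67.1% with median centering, 59.6% without the dimmest 50% of targets, 70.4% with probes within 500 nt of the last probe, 55.3% after removal of the gradient along targets, 46.9% with array weights, and 51.2% to 75.3% with 1 array left out. On the deposited values it was 41%, with 626 higher and 902 lower, but there the median of all targets was -0.33 and so the balance of rises and falls depends on the scaling. In Pb-treated larvae 364 targets were called, 1101 in the fit to all 12 arrays and 157 to 396 with 1 array left out.

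The replicate number as a block gave 3347 targets in controls (2962 of them also among the 3542) and 247 in Pb-treated larvae. Deviations of same-numbered arrays of the 2 ages correlated at 0.20, 0.06 and -0.12, and those of differently numbered arrays at -0.19 to 0.19. With 3 arrays per age these values do not decide whether the numbers pair the arrays. Of the 30 largest rises and falls, *mvda* lost its call under the block and 23 kept their call in every setting that measured them. Of the 136 called genes followed, 62 passed whichever array was left out, and all 136 kept their sign. With probes within 500 nt of the last probe, 2 genes changed sign, *xpnpep2* to -2.47 and *eef1a1b* to -0.5154, and the cause was not tested. Signals called lower lay in longer targets (median last probe at 1291 nt, against 901 nt over all targets), and dim targets and 3 arrays per age limit what could be called.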

Other observations

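Named genes outside the lists, chosen after their values were seen, added to the rises at 120 hpf. *ptgdsb.2*, a lipocalin-type prostaglandin D synthase gene, stood at 13.42, 13.41 and 13.37 in 120-hpf larvae, against 10.94, 10.89 and 11.09 in 72-hpf larvae, among the evenest values of any large rise (2.43, limma adjusted p = 5.92e-05). *gc*, the vitamin D binding protein of the liver, stood at 12.81, 12.56 and 12.78 at 120 hpf, against 10.22, 11.19 and 10.68 at 72 hpf (2.02, adjusted p = 0.00139). *coch*, known from the inner ear, rose by 1.82 (adjusted p = 0.0013), and *gip*, an incretin hormone of the gut, by 1.66 (adjusted p = 0.00379). *bco1l*, of the carotenoid cleaving enzymes, rose by 2.07 (adjusted p = 0.0121), but its call was lost when 1 array was left out (adjusted p of up to 0.0608).

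Among falls chosen in the same way, *cnpy2* (-1.21) and the collagen chaperone gene *serpinh2* (-0.92), both of the endoplasmic reticulum, passed with adjusted p of 0.0201 and 0.00968 by limma, as did *srm*, spermidine synthase (-1.12, adjusted p = 0.0172), and *dck*, deoxycytidine kinase (-1.01, adjusted p = 0.0115). *serpinh2* stood at 8.53, 8.58 and 8.53 in 120-hpf larvae, against 9.40, 9.33 and 9.68 in 72-hpf larvae, with no sign of the high value of 120-hpf array 2 that *cnpy2* had (7.90, 8.86 and 7.90, against 9.38, 9.40 and 9.52).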
